A study of Drosophila melanogaster with 47 samples.

Results

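Binding of the transcription factor br (broad) in Drosophila melanogaster embryos of 0-8 h was described from all 381 regions, called peaks, of the 1 deposited list that the labels assign to br. They are 381 of the 12745 peaks that 16 lists hold for 14 regulators. The br group had 2 replicates of chromatin immunoprecipitation followed by sequencing (ChIP-seq), made with the antibody KW1-br-core from the Lepesant Lab, and 1 input sample of embryos of the same age, which is chromatin sequenced without an antibody. The labels name no strain, allele or agent for these 3 samples, and do not say whether the replicates were separate collections of embryos. Lists used for comparison were those of Cmi, also in embryos of 0-8 h (antibody KW1-cmi, chromatin of an Exd-GFP stock, 2 replicates), and of prd in embryos of 0-12 h with the antibodies RF12 and RF13 (2 replicates each, with 1 input for both). The other lists came from stocks labelled Notch-GFP, Hr78-GFP, AbdB-GFP and LolaI-GFP at the stage W3L, read here as larvae, from Hr78-GFP embryos of 8-16 h, from Stat92E-GFP embryos of 0-12 h, from the fly cell lines Kc167 (Su(H), dm, insv, h) and S2 (CG8478), and from adult females (cnc). Read depth is unknown, the list holds no value per replicate, and every value below is 1 value for the br group.

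The br gene gives rise to several proteins that share an N-terminal BTB domain, through which such proteins pair, and differ in the zinc fingers that contact DNA. It is known as an early response gene of the steroid hormone ecdysone and for its part in the change from larva to pupa. The antibody's name refers to the core of the protein, and the peaks do not show which isoform was bound. Positions are those of the build dm3. Genes at the peaks were not determined, since no annotation or sequence of that build was used here.

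Most br peaks were of modest strength. The authors' fold enrichment over background had a median of 2.86 over the 381 peaks, with quartiles of 2.70 and 3.05, and ran between 2.45 and 8.99. The authors' score, the −log10 of their p-value, had a median of 6.51 and quartiles of 6.07 and 7.56, and only 22 peaks passed a score of 10. The weakest peak had a score of 5.77. Peaks were 70 to 1788 bp wide with a median of 331 bp, and 114 were under 200 bp while 18 were 1000 bp or wider. In all, the peaks covered 158872 bp. Score followed fold across peaks (Spearman's rho 0.78, n = 381) and width more loosely (rho 0.37). Many peaks had equal values, with 141 of the 381 sharing both fold and score with at least 1 other br peak, so the order among such peaks carries no information. The summit, the highest point of a peak, lay at a median of 55 bp from the centre.

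**Figure D1:**
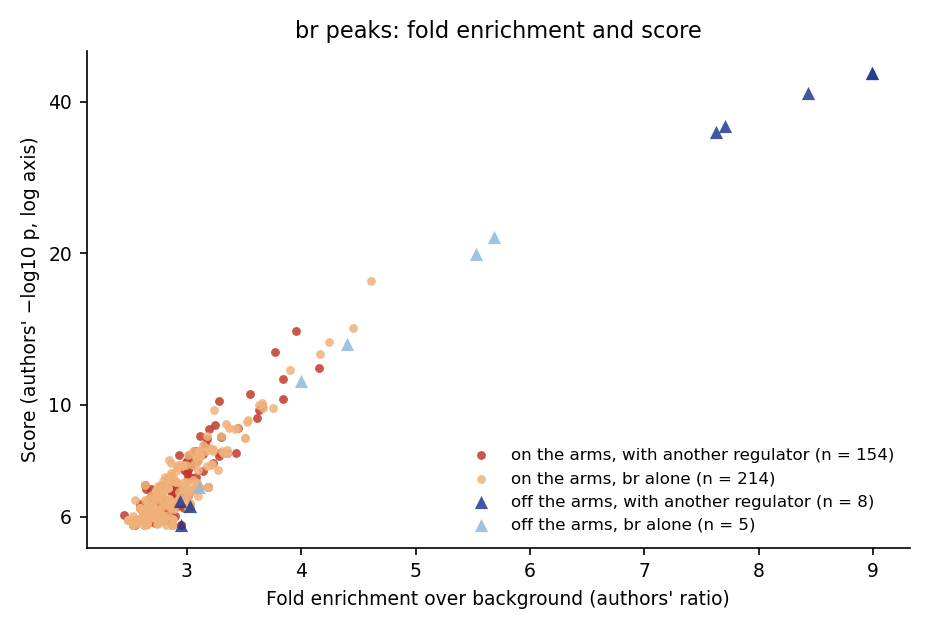
Each point is 1 of the 381 br peaks, by the authors' fold enrichment (x axis, ratio) and score (y axis, −log10 p, log axis). Triangles are the 13 peaks off the chromosome arms, and dark colours mark peaks that overlap a peak of another regulator. The 7 points above a fold of 5 are all triangles.

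The 7 strongest br peaks all lay on Uextra, the collection of sequence that the build places on no chromosome. Of the 13 br peaks off the 6 arms, 10 were on Uextra and 1 each on 2RHet, 3LHet and 3RHet. The 13 made up 3.41% of the br list (95% Clopper-Pearson interval 1.83 to 5.76), against 0.297% of the 1685 Cmi peaks (0.0964 to 0.691) and 1.42% of the 353 RF12 peaks (0.461 to 3.27). Over the 15 other lists the share ran between 0.0991% for Su(H) and 39.0% for dm. The best ones, at 7039465 to 7039707 and at 19603907 to 19604047, had the same fold of 8.99 and score of 45.5. The next 3, at 2684509 to 2684825, 27346759 to 27347071 and 17026090 to 17026218, had folds of 8.43, 7.70 and 7.62. These 5 peaks each overlapped a peak of Hr78 in embryos of 8-16 h and one of Notch in larvae, with summits 0 to 15 bp from the br summit. In the Hr78 list those peaks stood at ranks 2, 4, 5, 6 and 28 of 731. The Notch peaks stood lower in their list, at ranks 220, 347, 443, 709 and 748 of 2516. The remaining peaks of the 7 had folds of 5.69 and 5.53 and no partner. The placement of this sequence in the genome is unknown, and how far repeated sequence contributes to these values was not tested.

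On the arms, the strongest br binding formed a compact block on 3R. A run of 4 peaks between 26076845 and 26079044 filled 89.4% of its 2200 bp. Their folds were 4.61, 4.45, 4.24 and 4.16, and their scores 17.7, 14.2, 13.3 and 12.6. No other regulator was called at any of them, and the nearest summit of another list, of Notch, lay 3025 bp away. The peak of rank 10, the third of the strongest on the arms, was on 3R at 10198284 to 10199662 with a fold of 3.95. It was 1379 bp wide and overlapped CG8478, Notch and Su(H).

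The br peaks were spread over all arms. Of the 368 on the arms, 72 were on 2L, 73 on 2R, 62 on 3L, 93 on 3R, 2 on 4 and 66 on X. The share on X was 17.9% for br (14.2 to 22.2), against 19.4% for Cmi (17.5 to 21.4) and 12.6% for RF12 (9.34 to 16.6). Neither difference passed the test (two-sided Fisher's exact test, adjusted p = 0.559 and 0.123 over these tests). Of the 12094 peaks of the other lists on the arms, 21.0% were on X (20.3 to 21.7). On 2L the share was 19.6% for br (15.6 to 24.0) and 15.6% for those peaks (14.9 to 16.2). On 4 it was 0.543% for br and 1.80% for them. These pooled shares were not tested against br, and the comparisons on 2L and 4 were not planned.

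Many br peaks stood close to another br peak. Joining summits at most 10 kb apart placed 115 of the 381 peaks (30.2%, 25.6 to 35.1) in 50 groups, 39 of them pairs, 8 triplets, 2 of 4 peaks and 1 of 5. In the RF12 list, of about the same length, 38 of 353 peaks (10.8%, 7.73 to 14.5) were in such groups. In the cnc list of 491 peaks it was 161 (32.8%, 28.7 to 37.1), about the br share, and in the longer Cmi list 1155 of 1685 (68.5%). Within br groups neighbouring summits lay a median of 680 bp apart and the edges of neighbouring peaks 135 bp, against 1048 and 412 bp within RF12 groups. Of the 65 spacings between neighbouring br summits in groups, 44 were at most 1 kb. Whether such neighbours are separate sites or pieces of 1 wide region was not tested.

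**Figure D2:**
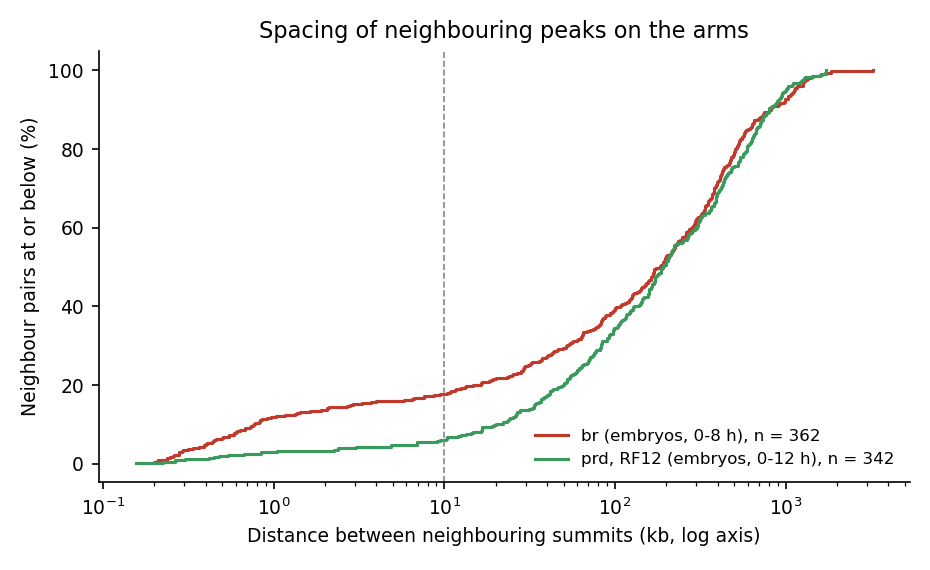
The curves give the share of neighbouring summit pairs on the arms (y axis, %) at or below a distance (x axis, kb, log axis) for br (red, 362 pairs) and prd with RF12 (green, 342 pairs). At the dashed line of 10 kb br had reached 17.7% and RF12 6.14%, while the median spacings were 184399 and 191546 bp.

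The group with the most br peaks lay on 3R at 14738827 to 14749734 and held 5. Its best peak, 1788 bp wide and the widest of all br peaks, had a fold of 3.63 and overlapped Cmi and Notch. The one with the lowest score, at 14749498 to 14749734, had only a fold of 2.79 but overlapped CG8478, Cmi, Hr78 of larvae, Notch and Su(H). Of the groups of 4, the one on 3R is the block described above, and the other lay on 3L at 5823935 to 5827167. It had folds of 2.80 to 3.21, no partner at any peak, and no summit of another list within 20464 bp. Of the 50 groups, 19 held no peak shared with another regulator, 13 held shared peaks only and 18 held both. Peaks in groups were shared about as often as single peaks, 43.5% of 115 (34.3 to 53.0) against 42.1% of 266 (36.1 to 48.3).

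At most br peaks no other regulator was called. A peak of at least 1 of the 13 other regulators overlapped, by at least 1 bp, 162 of the 381 br peaks (42.5%, 37.5 to 47.7). In the other 15 lists, pooled, 66.9% of 12364 peaks overlapped another regulator. The lists most like br in this were dm (39.0%), prd with RF13 (46.2%), prd with RF12 (38.8%) and cnc (33.0%), and Cmi, of the same age, stood at 53.5% (51.1 to 55.9). Of the br peaks, 55 had 1 other regulator, 51 had 2, 23 had 3 and 33 had 4 or more. The share with 3 or more was 14.7% for br (11.3 to 18.7), 20.9% for Cmi (19.0 to 23.0) and 10.8% for RF12 (7.73 to 14.5). The share of br peaks with a partner depended on the definition, at 34.4% for summits within 250 bp and 51.7% for peaks within 500 bp. It was 21.6% with the 250 best peaks of each list and, in an alternative chosen after seeing the data, 24.9% for lists of embryos only.

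**Figure D3:**
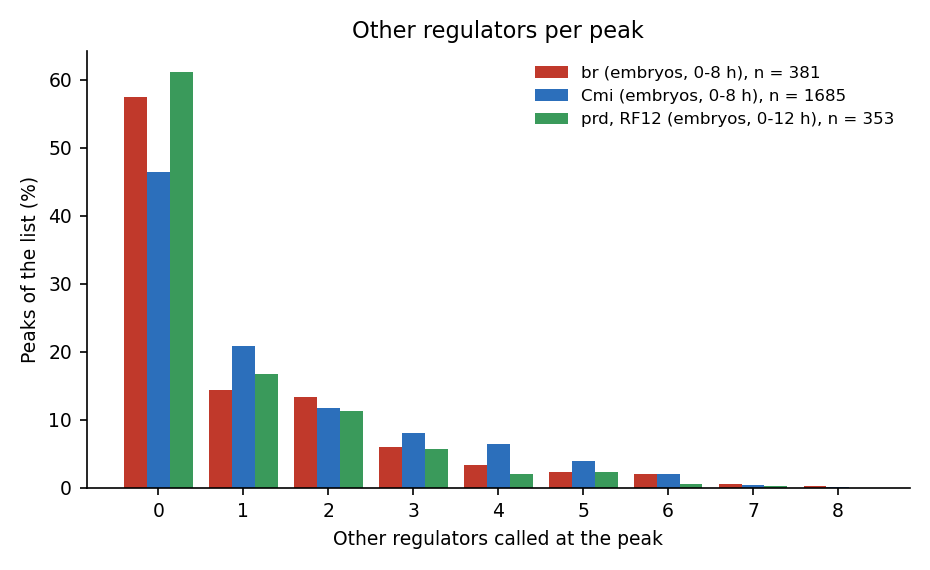
Bars give the share of peaks (y axis, %) at which a given number of other regulators (x axis) was called, for br (red), Cmi (blue) and prd with RF12 (green). The br bar at 0 stands at 57.5%, between 46.5% for Cmi and 61.2% for RF12.

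Strong br peaks were not those shared most. With the br list cut into 4 bins of 95 or 96 peaks from the lowest to the highest score, 43.2%, 45.3%, 38.9% and 42.7% of the peaks overlapped another regulator. The 4 bins from narrowest to widest gave 39.6%, 48.4%, 37.9% and 44.2%. The intervals of these shares overlapped one another, and that around 38.9% ran from 29.1 to 49.5. The rho between score and the number of other regulators was −0.02 over the 381 peaks, and that between width and this number 0.01. Median fold was 2.86 both for the 162 shared and for the 219 unshared br peaks.

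By material, a list of embryos was met at 95 br peaks (24.9%, 20.7 to 29.6), a list of larvae at 104 (27.3%, 22.9 to 32.1), a list of cell lines at 73 (19.2%, 15.3 to 23.5) and the list of adult females at 10 (2.62%). These lists differ in number and length, so the shares are not a ranking of stages.

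Partner by partner, br overlapped most lists less often than the pooled peaks of the remaining lists did. In 11 of the 15 lists the 95% interval of the br share lay below that background, for 1 list, prd with RF13, it lay above, and for cnc, dm and h it included it. In the top-scoring 50% of each list the RF13 share, 2.09% of 191 br peaks, no longer lay above its background. The shares of Cmi (11.5%), insv (1 of 191) and RF12 (0 of 191) no longer lay below there. Nor did that of Cmi with the 250 best peaks of each list (10 of 250), or that of embryonic Hr78 within 500 bp (15.2%). The h share lay below only with the 250 best peaks (8 of 250). The background weights each list by its length. Against the median share over lists instead, the br share was below for 6 lists and above for 1. For Notch, AbdB, Hr78, Lola and Stat92E the pooled background includes the other lists made with the same anti-GFP antibody. For Notch it was 46.3%, while 28.6% of Cmi, 24.1% of RF12 and 24.9% of br peaks overlapped Notch. Cmi and RF12 also lay below background for AbdB (11.2% and 7.37%), larval Hr78 (17.8% and 12.2%) and embryonic Hr78 (9.26% and 14.4%). The same held for Lola (2.61% and 1.42%) and Stat92E (2.55% and 1.98%). A share below background at these lists was thus not particular to br. The Cmi share lay above background for Su(H) (26.5% against 22.9%), RF13, dm and h, as did that of RF12 for h. How far the shared antibody raises the pooled background was not tested.

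Among receptors and their partners in signalling, Notch, the receptor whose intracellular part acts in the nucleus, was called in larvae at 95 br peaks (24.9%, 20.7 to 29.6), against 46.3% in the background. Its DNA-binding partner Su(H), in Kc167 cells, was called at 35 (9.19%, 6.48 to 12.5), against 22.9%. The corepressor insv was found at 6 (1.57%), against 4.02%. Stat92E, the transcription factor of the JAK-STAT pathway, was at 8 (2.10%), against 4.92%. The nuclear receptor Hr78, which like br acts in the ecdysone response, was called at 61 br peaks in larvae (16.0%, 12.5 to 20.1), against 28.1%, and at 44 in embryos of 8-16 h (11.5%, 8.52 to 15.2), against 16.1%. At 35 br peaks it was called at both stages.

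Among regulators of patterning and chromatin, Cmi, which acts in a coactivator complex that methylates histones, overlapped 55 br peaks (14.4%, 11.1 to 18.4), against 21.8%. The Hox protein AbdB was at 32 (8.40%), against 20.3%, and CG8478 in S2 cells at 41 (10.8%), against 22.1%. Lola, a BTB zinc finger protein like br, was at 11 (2.89%), against 5.68%. The pair-rule repressor h was also at 11, against 3.52%. The bZIP protein cnc was at 10 (2.62%), against 2.63%, and dm, the fly Myc protein, at 1 (0.262%), against 0.783%. The pair-rule protein prd was at 18 with RF13 (4.72%, 2.82 to 7.36), against 1.20%, and at none with RF12, against 2.67%. Taking 3 counts as the limit, 0 of 381 allows a share of up to 0.787%.

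**Figure D4:**
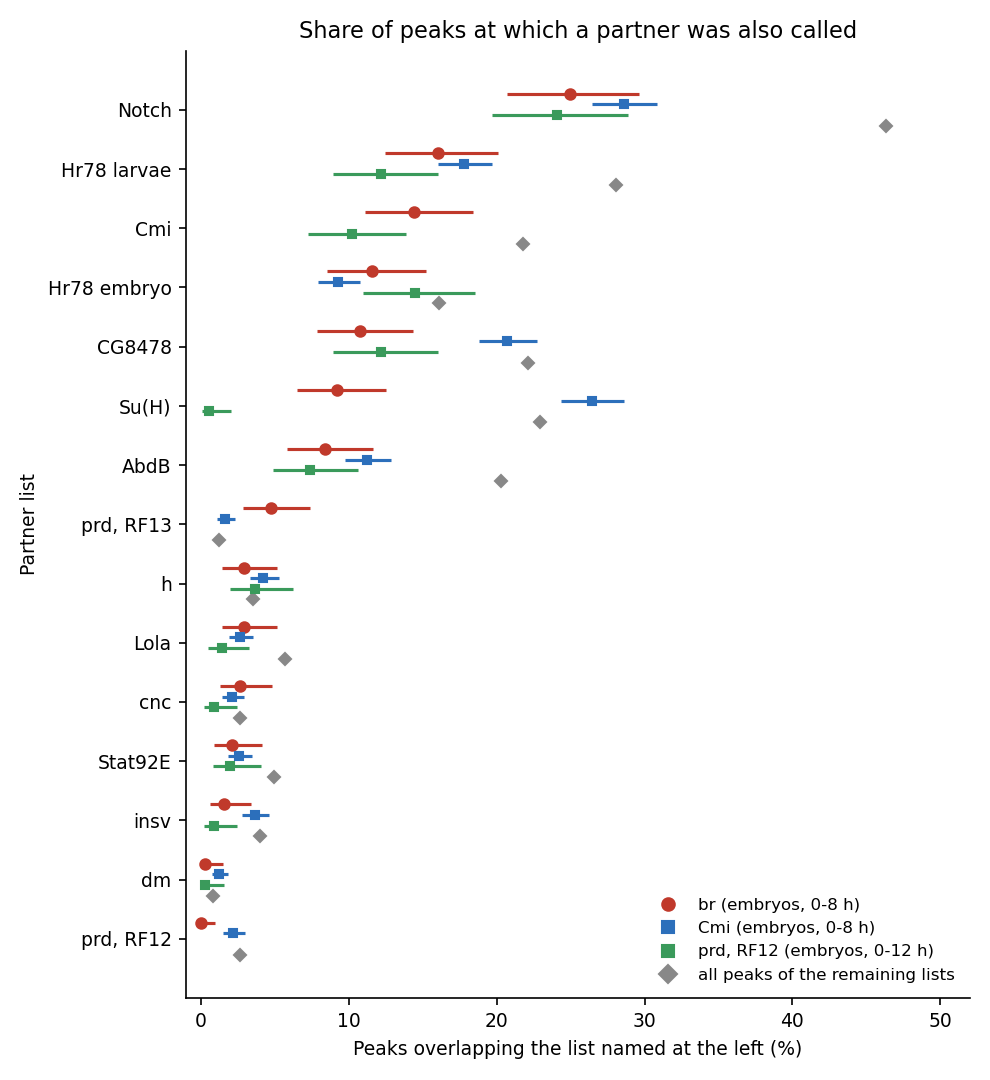
For each partner list (rows), points give the share of peaks that overlap it (x axis, %) for br (red circles), Cmi (blue squares) and prd with RF12 (green squares), with 95% Clopper-Pearson intervals as bars, and grey diamonds the pooled peaks of the remaining lists. The br point for RF13 lies right of the diamond, at 4.72% against 1.20%, and that for Su(H) lies between RF12 and Cmi.

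Taken as a share of the partner's own list, the overlap with br was small except for RF13. The br peaks met 18 of the 132 RF13 peaks (13.6%, 8.29 to 20.7), 43 of the 731 embryonic Hr78 peaks (5.88%) and 10 of the 216 h peaks (4.63%). They met 52 of the 1685 Cmi peaks (3.09%), 94 of the 2516 Notch peaks (3.74%) and 39 of the 2018 Su(H) peaks (1.93%). For the remaining lists the share ran between 0 for RF12 and 4.74% for larval Hr78. The RF13 list was also met by 27 of the 1685 Cmi peaks. How much of each partner list single lists other than br meet was not determined. The RF13 share is therefore not shown to be particular to br.

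The partners of br differed from those of Cmi at 4 of 14 lists and from those of RF12 at 1 of 13. These were two-sided Fisher's exact tests, Benjamini-Hochberg adjusted over the 27 tests. Peaks are counted, so the p-values cover counting error and not the spread between replicates. The tests also treat peaks as independent, though 30.2% of br and 68.5% of Cmi peaks stood in groups. Neighbouring peaks can meet the same partner peak, so the p-values may be too small. Su(H) was found at 9.19% of br peaks, against 26.5% of Cmi peaks (24.4 to 28.6, Fisher's exact test, adjusted p = 2.43e-13) and 0.567% of RF12 peaks (0.0687 to 2.03, adjusted p = 2.37e-07). CG8478 was found at 10.8% of br and 20.7% of Cmi peaks (18.8 to 22.7, Fisher's exact test, adjusted p = 2.79e-05), while the difference from RF12, at 12.2%, did not pass (adjusted p = 0.761). The RF13 list was met by 4.72% of br and 1.60% of Cmi peaks (1.06 to 2.32, Fisher's exact test, adjusted p = 0.00421), and RF12 by none of the br and 2.14% of the Cmi peaks (adjusted p = 0.00468). Notch, with the highest share in each, gave 24.9% for br, 28.6% for Cmi and 24.1% for RF12, and these differences did not pass (Fisher's exact test, adjusted p = 0.369 and 0.861).

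Some of these contrasts depended on the depth of the lists. With the Cmi list cut to its 381 best peaks, 8 of 14 partners differed, all of them rarer at br peaks, among them Notch (24.9% against 40.7%) and h (2.89% against 11.8%). The RF13 difference no longer passed there (4.72% against 2.62%, Fisher's exact test, adjusted p = 0.341). In the top-scoring 50% of each list the RF13 difference did not pass either (2.09% against 1.07%, Fisher's exact test, adjusted p = 0.676), the RF12 difference, 0 against 1.78%, did not pass (adjusted p = 0.394) and the Su(H) difference from RF12 stood at 4.19% against 0 (adjusted p = 0.0509). AbdB differed from Cmi there (2.09% against 9.02%, Fisher's exact test, adjusted p = 0.00424).

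Some partners were often called at the same br peaks. Of the 32 br peaks with AbdB 30 also had Notch, as did 58 of the 61 with larval Hr78, 42 of the 44 with embryonic Hr78 and all 8 with Stat92E. These lists were made with the same anti-GFP antibody as Notch, and so was that of Lola, where 7 of 11 had Notch. The part of the shared antibody in these overlaps was not tested. Over their whole lists, 96.2% of AbdB, 91.7% of larval Hr78 and 89.6% of embryonic Hr78 peaks overlapped some other regulator. For Stat92E it was 77.7% and for Lola 71.2%. The shares of these whole lists that overlap Notch itself were not determined. Whether the overlap with Notch is particular to br peaks was not tested. Among the 286 br peaks without Notch, AbdB was called at 2 and larval Hr78 at 3. The br peaks with Cmi also held other partners more often than those without. Of the 55 with Cmi, 25 had CG8478 (45.5%) and 17 had Su(H) (30.9%), against 4.91% and 5.52% of the 326 without Cmi. Notch was likewise at 25 of the 55 (45.5%), against 21.5% of those without Cmi, larval Hr78 at 38.2% against 12.3%, and AbdB at 25.5% against 5.52%. Over all 1685 Cmi peaks, CG8478 was at 20.7%, Su(H) at 26.5% and Notch at 28.6%. Larval Hr78 was at 17.8% of all Cmi peaks and AbdB at 11.2%. These co-occurrences were not tested. As a lone partner, Notch was found at 13 br peaks, Cmi at 12, Su(H) at 9, prd with RF13 at 7 and cnc at 5.

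Summit distances differed between partners. At the 18 br peaks with RF13 the summits were 0 to 221 bp apart, with a median of 53.5 bp, and 13 were within 100 bp. At the 55 peaks with Cmi the median was 227 bp, with 16 within 100 bp, at the 61 with larval Hr78 it was 163 bp, and at the 95 with Notch 172 bp. The lists of h and Stat92E, at 11 and 8 br peaks, had medians of 45 and 56 bp. These distances were not tested, and they also depend on the widths of the peaks.

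**Figure D5:**
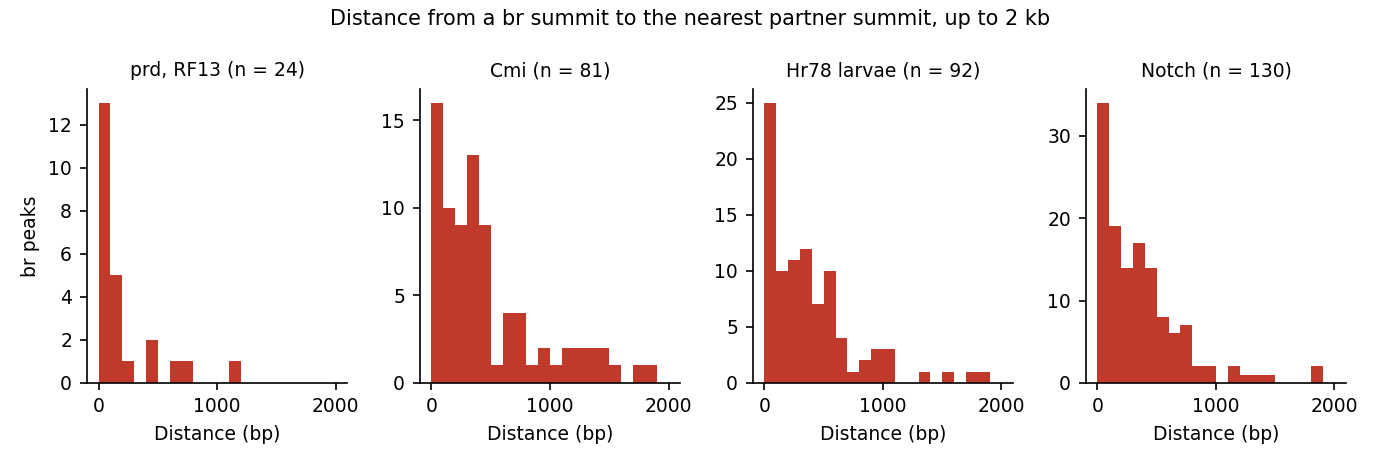
Histograms of the distance from a br summit to the nearest summit of prd with RF13, Cmi, Hr78 in larvae and Notch (x axes, bp, in steps of 100), with the number of br peaks on the y axes, each panel with its own scale. Within 2 kb lay 24, 81, 92 and 130 br peaks, and the first step holds 13 for RF13, 16 for Cmi, 25 for Hr78 and 34 for Notch.

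The br peaks shared with RF13 were ordinary in br strength. Their median br score was 6.35, against 6.51 over the whole list, and 7 of the 18 stood in the better-scoring part of the br list, ranks 1 to 190. The 5 with the highest br score lay on X at 17401203 to 17401702 (br fold 3.65, RF13 fold 3.33), on X at 14477113 to 14477367 (3.35 and 2.65), on X at 9448148 to 9448836 (3.35 and 2.59), as well as on 3R at 24636921 to 24638137 (3.00 and 2.77) and on X at 2626460 to 2626816 (3.08 and 3.28). On X lay 7 of the 18, while X held 17.3% of all 381 br peaks, and the share of the RF13 list on X was not determined. The peak at 17401203 overlapped Notch and Su(H) as well, the one at 14477113 overlapped AbdB, Hr78 at both stages, Lola, Notch and Stat92E, and those at 9448148 and 24636921 overlapped no list but RF13. Of the 18, 5 had Cmi (27.8%), 4 had Notch (22.2%) and 3 had Su(H) (16.7%). Among the 363 br peaks without RF13 the shares were 13.8%, 25.1% and 8.82%, and these differences were not tested. With RF12, 1 br peak lay within 500 bp, and the closest summits were 522 bp apart.

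A few br peaks were shared with many regulators. On 3R at 25597888 to 25598586, a br peak with a fold of 3.09 and a score of 7.72 overlapped 8 other regulators, CG8478, Cmi, cnc, h, Hr78 of larvae, insv, Notch and Su(H). With 7 came 2L at 7828027 to 7829091 (fold 3.00) and X at 12629918 to 12630031 (fold 3.01). With 6, the best-scoring were X at 14477113 to 14477367, named above for RF13, and 2L at 19575630 to 19576299 (fold 2.93). The 20 br peaks with 5 or more other regulators had a median score of 6.32 and a highest score of 8.96, against a median of 6.51 over the whole br list. They made up 5.25% of the br list (3.24 to 7.99). The share with 5 or more was 7.59% over the other lists, pooled, 6.53% for Cmi and 3.12% for RF12.

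The 219 br peaks with no partner lay at varied distances from binding of others. The nearest summit of any other list lay within 1 kb for 43 of them (19.6%), within 10 kb for 133 (60.7%, 53.9 to 67.2) and beyond 50 kb for 12. On the arms the farthest were peaks on 3R at 23262955 to 23264049 and at 23264099 to 23264861, with folds of 3.24 and 3.67 and no other summit within 115677 bp, the nearest being of cnc. With a further br peak beside them they formed a group of 3 that filled 95.1% of 2164 bp.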

How the data were processed

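Per the labels' protocols, chromatin of sonicated tissue was immunoprecipitated and libraries were made by tagmentation with Nextera reagents. Per the submitters' processing notes, the build was dm3, and MACS2, BWA and CASAVA 1.7.0 were among the tools. How MACS2 was run, and whether replicates were pooled, is not stated there. The deposited lists hold, by their layout, the authors' fold enrichment (a linear ratio), the authors' −log10 p (the score), and the authors' deposited summit offset in bp, another value.

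All 381 peaks of the br list were used, with positions written 1-based. Peaks overlapping by at least 1 bp were called shared, and the 2 lists of prd and of Hr78 counted as 1 regulator each. Shares have exact Clopper-Pearson 95% intervals, which like the limit for a count of 0 (3 counts of the total) cover counting error only. The background of a partner list is the pooled peaks of the lists of regulators other than br and that partner. Differences in shares were tested by two-sided Fisher's exact tests with Benjamini-Hochberg adjustment. Steps were checked on simulated lists with known overlaps. Named regions were the 10 best-scoring br peaks, the 5 with the most partners, the 5 best br peaks with RF13 and the 3 groups with the most peaks; 2 peaks far from other lists, and the peak and summit distances to RF12, were added after their values were seen. The members, lists and rules were chosen with earlier results of these data known. Calculations used Python 3.11.15, numpy 2.4.6, pandas 2.3.3, scipy 1.17.1 and matplotlib 3.10.9.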

Additional observations from a re-analysis of the deposited data

How the results depend on the processing

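The share of br peaks with another regulator, 42.5%, was 39.1% with an overlap of 50% of the shorter peak, 42.0% with peaks of 400 bp around the centre and 41.8% on the 6 arms. It moved to 51.7% within 500 bp, 34.4% for summits within 250 bp, 31.4% in the top-scoring 50% of each list, 21.6% with the 250 best peaks of each list and, in an alternative chosen after seeing the data, 24.9% for lists of embryos only. The number of partner lists with a br share below the background, 11, lay between 8 and 11 under 7 other settings and was 6 with the median over lists as background, chosen after seeing the data. The cause of these changes was not tested.

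Of the 27 contrasts with Cmi and RF12, the numbers passing, 4 and 1, were the same with a 50% overlap and with 400 bp peaks. They were 3 and 0 in the top-scoring 50%, where 1 RF12 contrast had an unadjusted p under 0.05 by Fisher's exact test, and with the Cmi list cut to 381 peaks 8 partners passed. Differences that had not passed changed sign 12 times, each time without passing. Against Cmi (br share minus Cmi share, percentage points) these were Lola and Stat92E in the top-scoring 50% (−0.851 and 0.503), and embryonic Hr78 and Lola with the shortened list (−6.04 and −1.05). Against RF12 they were AbdB and Notch with a 50% overlap (−0.541 and −0.574), Notch and Stat92E with 400 bp peaks (−4.24 and −0.167), and AbdB, CG8478, insv and Lola in the top-scoring 50% (−1.30, 0.674, −0.0414 and −0.648).

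The share of br peaks in groups was 27.8% with a gap of 5 kb, 36.7% with 20 kb and 18.8% in the top-scoring 50%, against 8.78%, 17.3% and 5.65% for RF12. The share on X kept its side of the test in both alternatives. No paired analysis was possible because the lists hold no value per replicate, and for the same reason no replicate could be left out.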
